A study of Mus musculus with 4 samples.

Results

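The genes described here are 10 genes that mark neutrophils: *S100a8*, *S100a9*, *Csf3r*, *Cxcr2*, *Mmp8*, *Mmp9*, *Lcn2*, *Ngp*, *Retnlg* and *Padi4*. They were taken by name from a table of 21462 genes, and all 10 were found in it. The table covers lung smooth muscle cells of mice in which *Tet3* was inactivated and of control mice, with 2 libraries in each group. The TET3 protein is a dioxygenase that turns 5-methylcytosine of DNA into 5-hydroxymethylcytosine. Mutant animals carried floxed *Tet3* alleles (*Tet3* fl/fl), a tamoxifen-inducible Cre driven by the α-SMA promoter and a ROSA26 tdTomato reporter on a C57BL/6 background. Control animals of the paper lacked the floxed alleles but carried the Cre, the reporter or both. For the controls used here, sorting tdTomato+ cells required both. Lungs were perfused, digested and depleted of cells bearing CD45 or Ter-119 with magnetic beads, which removes blood cells, and live tdTomato+ cells were then sorted. α-SMA is also made by myofibroblasts and pericytes, so the sort was not limited to one kind of contractile cell. Age, sex and batch are not given in the labels.

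Neutrophils are short-lived granulocytes that are made in the bone marrow and are among the first cells to enter an inflamed lung. They sense chemokines and bacterial peptides through surface receptors, and they release proteases and antimicrobial proteins that were packed into granules while the cell matured. Many neutrophils are held in the small vessels of the healthy lung. The 10 genes cover these functions: *S100a8* and *S100a9* encode the subunits of calprotectin, *Csf3r* and *Cxcr2* the receptors for the growth factor G-CSF and for CXC chemokines, *Mmp8* and *Mmp9* a granule collagenase and gelatinase, *Lcn2* and *Ngp* granule proteins, *Retnlg* a secreted resistin-like protein and *Padi4* the enzyme that citrullinates histones during the release of extracellular traps.

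Transcription of neutrophil granule genes depends on C/EBP factors and on PU.1. The 250 bases before the annotated start of each gene were read from the RefSeq promoter table (GRCm38.p6), which held 9 of the 10 genes, all but *Mmp9*. Motifs were searched on both strands, and overlapping matches were kept. The C/EBP letters TTGCNNAA were in the windows of 5 of the 9 genes (*S100a9*, *Mmp8*, *Lcn2*, *Ngp*, *Retnlg*), against 9.56% of all 32851 promoters. The PU.1 core GAGGAAG was in 4 of the 9 (*S100a8*, *Csf3r*, *Mmp8*, *Lcn2*), against 10.6% of all promoters. TATAAA was in 2 of the 9 (*S100a8*, *Padi4*) against 12.4%, and the NF-kB consensus was in 1 (*Csf3r*) against 7.25%. *Cxcr2* held none of these letters in its window. Some matches lay past the first exon base that GENCODE annotates in the window. They were the C/EBP letters and PU.1 core of *Lcn2*, the PU.1 core of *Csf3r*, and TATAAA of *S100a8* and *Padi4*. The C/EBP match of *Ngp* nearest the start, given below, was also among them. Such a match is a description of the letters and says nothing of binding.

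4 windows are printed 5′ to 3′ on the strand of their gene, chosen because *S100a8* and *S100a9* encode the subunits of one complex and had similar fold changes, and because *Mmp8* and *Ngp* encode granule proteins and held C/EBP letters outside annotated exons. Bases from the first exon annotated by GENCODE onward are left out. Capitals mark C/EBP letters (TTGCNNAA or its reverse complement) or the PU.1 core (GAGGAAG or its reverse complement). The *S100a8* stretch is chr3:90668821-90668977 on the plus strand, the *S100a9* stretch chr3:90695722-90695971 on the minus strand, the *Mmp8* stretch chr9:7558179-7558428 and the *Ngp* stretch chr9:110419558-110419746, both on the plus strand.
S100a8: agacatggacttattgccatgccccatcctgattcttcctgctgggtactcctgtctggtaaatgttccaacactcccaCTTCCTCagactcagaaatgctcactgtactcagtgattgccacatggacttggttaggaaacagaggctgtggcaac
S100a9: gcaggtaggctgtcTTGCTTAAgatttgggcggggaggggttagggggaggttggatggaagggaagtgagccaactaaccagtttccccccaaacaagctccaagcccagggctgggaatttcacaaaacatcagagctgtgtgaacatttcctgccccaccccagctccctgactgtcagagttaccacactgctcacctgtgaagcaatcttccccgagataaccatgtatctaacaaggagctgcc
Mmp8: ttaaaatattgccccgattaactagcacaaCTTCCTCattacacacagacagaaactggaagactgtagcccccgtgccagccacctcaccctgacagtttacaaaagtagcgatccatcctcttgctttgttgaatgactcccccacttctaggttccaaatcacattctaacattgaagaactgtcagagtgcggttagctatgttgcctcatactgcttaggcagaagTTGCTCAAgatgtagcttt
Ngp: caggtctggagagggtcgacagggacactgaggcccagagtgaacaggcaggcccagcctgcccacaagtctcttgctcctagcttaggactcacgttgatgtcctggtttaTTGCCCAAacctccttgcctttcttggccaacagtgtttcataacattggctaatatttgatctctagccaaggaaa
The PU.1 core of *S100a8* began 171 bases before the annotated start, and the C/EBP letters of *S100a9* began 236 bases before it. *Mmp8* had both, with C/EBP letters 19 bases and a PU.1 core 220 bases before the start. *Ngp* had C/EBP letters 138 bases before the start, shown above, and again 11 bases before it, within an exon that GENCODE annotates.

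The deposited values are counts of reads per gene scaled between libraries and rounded, called normalized counts here. They summed to between 6805272 and 7164573 per library. *Tet3* was at 1847 and 1926 normalized counts in the controls and at 1534 and 1444 in the mutants. Smooth muscle markers were present, with *Acta2* between 686 and 1032 normalized counts, and so was *Ptprc*, which encodes CD45, between 1364 and 2674, despite the depletion of CD45+ cells. Control replicate 2 stood apart from the other libraries: it had 2 normalized counts of *Xist* and 774 of the Y-linked gene *Ddx3y*, whereas the others had 5214 to 6781 of *Xist* and 0 of *Ddx3y*. Values are therefore also given without it. Fold changes are differences of log2(normalized count + 1) between Tet3 mutant and control libraries, with the standard error (SE) and p-value of limma fitted to all 16659 genes with a mean of at least 10, a minimum that all 10 neutrophil genes passed. In these sorted populations, a change in the number of neutrophils, in RNA per neutrophil or in RNA from other cells cannot be told apart.

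No neutrophil gene passed the adjusted threshold of 0.05, and 0% of the 16659 genes did (limma, Benjamini-Hochberg adjustment; smallest adjusted p = 0.0902). At an unadjusted p under 0.05, 1112 of all genes were found. By that rule 4 of the 10 neutrophil genes were higher in the mutants (*S100a8*, *S100a9*, *Cxcr2*, *Mmp9*), against 3.83% of all genes, and *Lcn2* was lower, against 2.85% of all genes. The count of genes that were higher was 2 without control replicate 2 (*S100a9*, *Mmp9*) and 0 without mutant replicate 1, while the count over all genes in either direction went from 1112 to 894 and to 273. Both mutant libraries lay above both controls for 6 of the 10 genes (the same 4, *Csf3r* and *Ngp*), against 19.6% of all genes. Both mutants lay below both controls for *Lcn2* alone, against 19.5% of all genes. The groups overlapped for *Mmp8*, *Retnlg* and *Padi4*. The median log2 fold change of the 10 was 0.74, with 9 above 0 (49.0% of all genes), while the median over all genes was -0.01.

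**Figure D1:**
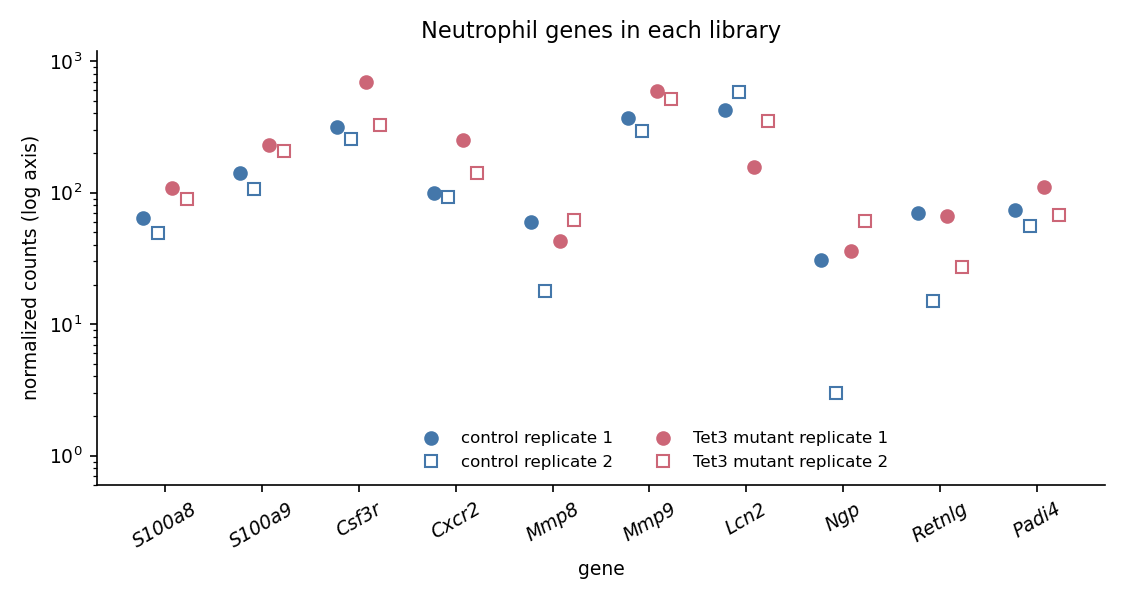
Normalized counts on a log axis of the 10 neutrophil genes in control replicates 1 and 2 (blue) and Tet3 mutant replicates 1 and 2 (red), 1 point per library. Both mutants lie above both controls for 6 genes and below them for *Lcn2*, and control replicate 2 is the lowest library for every gene but *Lcn2*.

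The calprotectin subunits bind calcium and zinc and make up much of the protein of the neutrophil cytosol. *S100a8* (ENSMUSG00000056054, chr3:90668978-90670035, plus strand, mm10) had 64 and 49 normalized counts in the controls and 108 and 89 in the mutants. *S100a9* (ENSMUSG00000056071, chr3:90692632-90695721, minus strand) had 140 and 107 in the controls and 232 and 206 in the mutants. For both genes the lower mutant library lay above the higher control. The log2 fold change of *S100a8* was 0.80 (SE 0.28) and that of *S100a9* 0.83 (SE 0.21), both with an unadjusted p under 0.05 and an adjusted p = 0.68 by limma. The order of the 4 libraries was the same for both subunits, with mutant replicate 1 the highest and control replicate 2 the lowest. The 2 genes lie 22.6 kb apart, with no other gene of the table between them. Without control replicate 2 the fold changes were 0.61 for *S100a8* and 0.64 for *S100a9*, and only *S100a9* kept an unadjusted p under 0.05 (0.033).

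Other S100 genes of chromosome 3 are found in many cell types. *S100a6* had 273 and 275 normalized counts in the controls and 306 and 294 in the mutants, a log2 fold change of 0.13 (SE 0.13). *S100a10* had 362 and 381 against 395 and 379. *S100a16* had 242 and 231 against 291 and 286, with both mutants above both controls. *S100a14*, found in epithelia, had 9 and 29 against 4 and 13, the lowest log2 fold change of the family list (-1.05), with overlapping groups. None of the 9 tested genes of the S100, PADI and resistin families had an unadjusted p under 0.05, and their median log2 fold change was 0.09. *Tlr4*, a receptor of extracellular calprotectin, had 423 and 441 normalized counts in the controls and 395 and 486 in the mutants, with overlapping groups. *Ager*, the other receptor on the list and a marker of alveolar type 1 cells in the lung, had 710 and 1232 against 497 and 766.

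*Cxcr2* (ENSMUSG00000026180, chr1:74153989-74161246) encodes the receptor by which neutrophils follow CXCL chemokines into tissue. It had 99 and 93 normalized counts in the controls and 250 and 141 in the mutants. Its controls lay close together, and the mutants differed from each other more than the lower mutant did from the controls. Its log2 fold change of 0.96 (SE 0.32) had an unadjusted p under 0.05 and an adjusted p = 0.68 by limma, and it was 0.55 without mutant replicate 1 and 1.37 without mutant replicate 2. *Csf3r* (ENSMUSG00000028859, chr4:126024550-126044440) encodes the receptor of G-CSF, which drives the formation and survival of neutrophils. It had 314 and 256 normalized counts in the controls and 690 and 327 in the mutants. Mutant replicate 2 lay only slightly above control replicate 1. For *Csf3r* the log2 fold change was 0.74 (SE 0.37, adjusted p = 0.68 by limma), and it went from 0.21 without mutant replicate 1 to 1.28 without mutant replicate 2.

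The ligands of these receptors that were analysed had at most 109 normalized counts in any library. *Cxcl1* had 33 and 32 normalized counts in the controls and 45 and 17 in the mutants. *Cxcl2* had 37 and 8 against 8 and 4, and the platelet-derived ligand *Ppbp* had 81 and 20 against 25 and 109. The groups overlapped for each of the 3 ligands, and none of them had an unadjusted p under 0.05. *Cxcl3* (1 to 4 normalized counts) and *Cxcl5* (4 to 16) were under the minimum, and *Csf3*, which encodes G-CSF, was not analysed here. *Cxcr1*, the other chemokine receptor of neutrophils, had between 0 and 4 normalized counts.

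*Mmp9* (ENSMUSG00000017737, chr2:164940780-164955850) encodes gelatinase B, which cleaves denatured collagen and type IV collagen of basement membranes and is also made by macrophages. It had 372 and 296 normalized counts in the controls and 593 and 514 in the mutants. The gap between the groups was larger than the difference within either. Its log2 fold change of 0.73 (SE 0.17) had the smallest unadjusted p of the 10 genes and an adjusted p = 0.68 by limma. Without control replicate 2 it was 0.57, still at an unadjusted p under 0.05. *Mmp8* (ENSMUSG00000005800, chr9:7558456-7568485), the neutrophil collagenase, had 60 and 18 normalized counts in the controls and 43 and 62 in the mutants. Control replicate 1 lay inside the range of the mutants, and control replicate 2 lay far below. For *Mmp8* the log2 fold change was 0.63 (SE 0.63, adjusted p = 0.79 by limma), and without control replicate 2 it was -0.21. *Timp1*, an inhibitor of MMP9, had 63 and 31 normalized counts in the controls and 86 and 107 in the mutants, a log2 fold change of 1.10 (SE 0.41) with an adjusted p = 0.68 by limma. Of the 7 partner genes on the list, which hold receptors of calprotectin and of LCN2 and protease inhibitors, *Timp1* was the only one at an unadjusted p under 0.05.

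*Lcn2* (ENSMUSG00000026822, chr2:32384633-32388252) encodes lipocalin 2, which withholds iron from bacteria by binding their siderophores. It is stored in the specific granules of neutrophils and is also made by airway and alveolar epithelium. It had 423 and 585 normalized counts in the controls and 158 and 352 in the mutants. Both mutants were lower than both controls, and the 2 mutants differed from each other by more than 2-fold. Its log2 fold change was -1.07 (SE 0.41), with an unadjusted p under 0.05 and an adjusted p = 0.68 by limma. Leaving out 1 library gave values from -1.65 to -0.50, and an unadjusted p under 0.05 remained only without mutant replicate 2. *Lcn2* was the only one of the 10 genes that was highest in control replicate 2. The 9 alveolar type 2 markers summed to 15894 and 24087 in the controls and 11057 and 14311 in the mutants, which is the order of the libraries for *Lcn2*. All 9 of these markers had a log2 fold change below 0 (median -0.68), while 49.0% of all genes were above 0. 4 of the 9 were lower at an unadjusted p under 0.05 (2.85% of all genes). Their part in the values of *Lcn2* was not tested.

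*Ngp* (ENSMUSG00000032484, chr9:110419747-110423012) encodes neutrophilic granule protein, a cathelicidin-related protein made while granules form in the bone marrow. It had 31 and 3 normalized counts in the controls and 36 and 61 in the mutants. Control replicate 1 lay close to mutant replicate 1, and the low mean of the controls rested on control replicate 2. The log2 fold change of 2.08 (SE 1.03) was the largest of the 10, with an adjusted p = 0.68 by limma. It was 0.58 without control replicate 2, 3.58 without control replicate 1 and 1.41 with 8 added before the logarithm in place of 1. *Camp*, which encodes the mouse cathelicidin of the same granules, had 3 and 2 normalized counts in the controls and 7 and 28 in the mutants, so that the controls were at or under 3 counts. *Ltf*, encoding lactoferrin of the specific granules, had 522 and 79 against 180 and 286, with overlapping groups and the lowest value again in control replicate 2.

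*Retnlg* (ENSMUSG00000022651, chr16:48872621-48874496) encodes a resistin-like protein secreted by bone marrow and blood neutrophils. It had 70 and 15 normalized counts in the controls and 66 and 27 in the mutants, and each group had a high replicate 1 and a low replicate 2. The groups overlapped, and the log2 fold change was 0.36 (SE 0.84, adjusted p = 0.92 by limma), and it was -0.71 without control replicate 2. *Retnla*, a relative made by alternatively activated macrophages and epithelium, had 195 and 190 against 187 and 255. *Padi4* (ENSMUSG00000025330, chr4:140745865-140774236) had 74 and 56 normalized counts in the controls and 110 and 68 in the mutants. Mutant replicate 2 lay between the 2 controls. *Padi4* had a log2 fold change of 0.42 (SE 0.34, adjusted p = 0.74 by limma), which was 0.08 without mutant replicate 1. *Padi2*, the family member found in many tissues, had 153 and 104 normalized counts in the controls and 108 and 172 in the mutants.

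**Figure D2:**
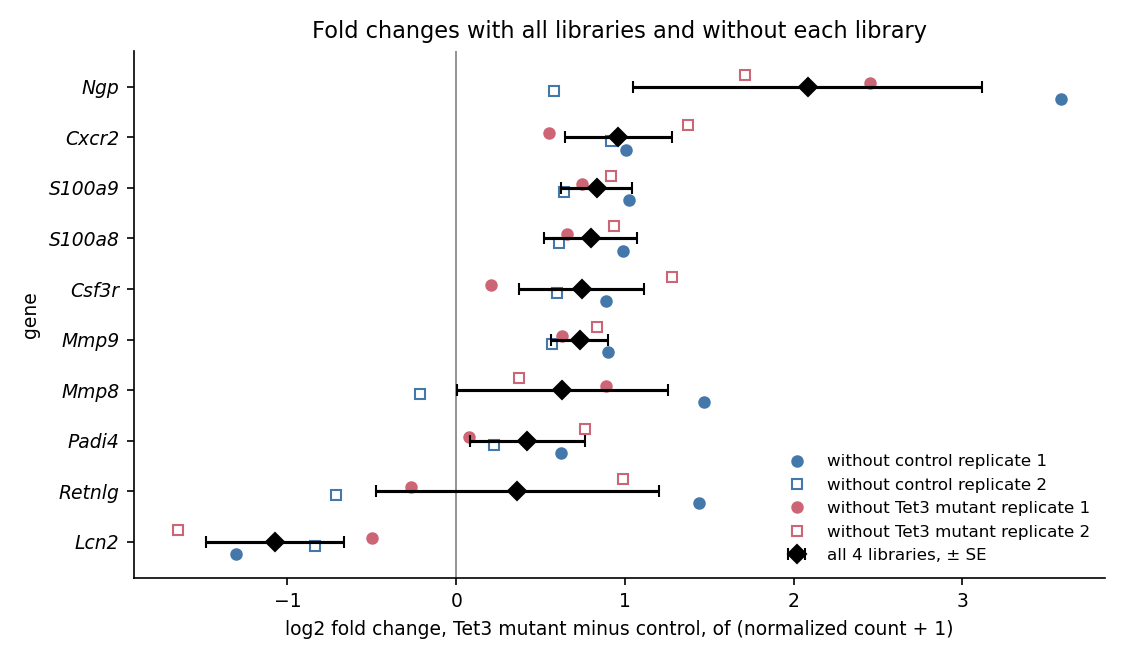
Log2 fold changes of the 10 neutrophil genes, Tet3 mutant minus control, with all 4 libraries (black diamonds, bars ± SE of limma) and with each library left out in turn (coloured points). The points for *S100a8*, *S100a9*, *Cxcr2* and *Mmp9* stay above 0.5, those of *Lcn2* stay below 0, and those of *Mmp8* and *Retnlg* fall on both sides of 0.

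The level of a gene can be compared with that of another only per length, so normalized counts were divided by the exon length in kilobases. *S100a9* had the highest level of the 10 in both groups, at 237 ± 44.7 normalized counts per kb (SD, n = 2) in controls and 420 ± 35.2 in mutants. The median gene was at 54.1 per kb in controls and 53.3 in mutants. In the controls *Lcn2* followed at 192 ± 43.7 per kb, and the libraries of the 2 genes overlapped. *Mmp9* (94.4), *S100a8* (81.4), *Csf3r* (79.0) and *Retnlg* (71.7) came next, each overlapping with its neighbour. *Cxcr2* (31.5) overlapped with *Retnlg* and lay above *Mmp8* (16.1) without overlap, and *Mmp8*, *Ngp* (13.9) and *Padi4* (13.4) overlapped with one another in turn. In the mutants *Lcn2* came after 4 other genes at 97.2 ± 52.3 per kb, namely *S100a9*, *Mmp9* (156), *S100a8* (142) and *Csf3r* (141). The mutant libraries of *Lcn2* (60.2 and 134) overlapped with those of *Csf3r* (191 and 90.6) and *S100a8* (156 and 128). They did not overlap with those of *Mmp9* or *S100a9*. *Cxcr2* was at 64.1 and *Ngp* at 39.7 per kb in the mutants.

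A further 33 neutrophil genes were set beside the 10. 22 of them passed the minimum, 5 (*Ly6g*, *Elane*, *Ctsg*, *Stfa1*, *Stfa2*) were not analysed here, and *Cxcr1* and *Mpo* were at 0 in at least 1 library. 20 of the 22 had a log2 fold change above 0 (49.0% of all genes), with a median of 0.76. The 28 found in the table summed to 6656 and 4068 normalized counts in the controls and 6356 and 7022 in the mutants, so the sums of the groups overlapped. Both mutants lay above both controls for 8 of the 22 (19.6% of all genes), and 4 were higher at an unadjusted p under 0.05 (3.83% of all genes), with none past the adjusted threshold (limma). The 4 were *Il1r2*, the decoy receptor of interleukin 1, with 16 and 14 normalized counts in the controls against 50 and 28, *Clec4d*, a receptor of fungal and mycobacterial ligands, with 30 and 18 against 71 and 50, *Selplg*, the ligand of selectins on rolling leukocytes, with 400 and 347 against 453 and 535, and *Camp*. Without control replicate 2 none of the 22 had an unadjusted p under 0.05 in that direction and the median was 0.15, whereas without control replicate 1 there were 12 and the median was 1.43. Over all genes the count in either direction was 894 without control replicate 2 and 3366 without control replicate 1. The median of the 22 was 0.73 without mutant replicate 1 and 0.70 without mutant replicate 2.

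The formyl peptide receptors, through which neutrophils sense bacterial peptides, were among the genes for which control replicate 2 set the mean of the controls. *Fpr1* had 85 and 11 normalized counts in the controls and 63 and 94 in the mutants, and *Fpr2* had 39 and 2 against 26 and 39. For both, control replicate 1 lay within or at the edge of the range of the mutants. *Chil3*, a chitinase-like protein of neutrophils and alveolar macrophages, had 776 and 136 against 610 and 757. *Cd177*, a surface protein of neutrophils, had 67 and 37 against 70 and 76, and *Ncf1*, a subunit of the NADPH oxidase, had 536 and 474 against 594 and 681. *Hdc*, the enzyme that makes histamine, had 439 and 896 in the controls and 330 and 499 in the mutants.

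Of the transcription factors that direct granulocyte formation, *Spi1*, which encodes PU.1, had 336 and 298 normalized counts in the controls and 408 and 489 in the mutants. Its groups did not overlap, and the log2 fold change was 0.50 (SE 0.16), with an unadjusted p under 0.05 and an adjusted p = 0.68 by limma. *Cebpd* had 820 and 845 in the controls and 588 and 595 in the mutants, a log2 fold change of -0.49 (SE 0.10), also with an unadjusted p under 0.05 and an adjusted p = 0.68 by limma. *Cebpa* had 805 and 1424 against 525 and 813, with overlapping groups and, as for *Lcn2*, the highest value in control replicate 2. *Cebpe*, which is needed for specific granules, and *Gfi1* were under the minimum, at 0 to 4 and 4 to 10 normalized counts. PU.1 and C/EBP factors also act in macrophages and, for C/EBP, in alveolar epithelium.

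**Figure D3:**
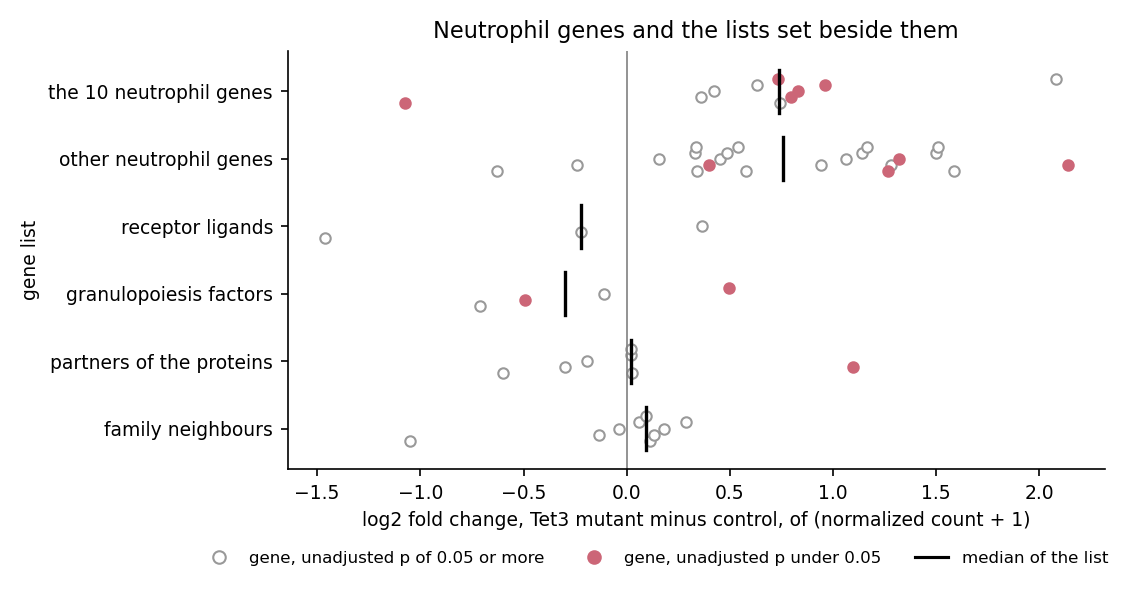
Log2 fold changes, Tet3 mutant minus control, of the tested genes of each list, 1 point per gene, filled where the unadjusted limma p was under 0.05, with a black line at the median. Medians are 0.74 for the 10 neutrophil genes and 0.76 for the 22 other neutrophil genes, and the lists of ligands, factors, partners and family neighbours have medians from -0.30 to 0.09.

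The sums of pan-leukocyte and of macrophage and monocyte markers were also higher in both mutant libraries, with no marker past the adjusted threshold (limma). The 10 neutrophil genes summed to 1647 and 1478 normalized counts in the controls and 2286 and 1847 in the mutants. Without *Lcn2*, the only one of them that was lower in the mutants, the sums were 1224 and 893 against 2128 and 1495. The 10 pan-leukocyte markers summed to 7346 and 5894 against 8277 and 8264, with 8 of 10 higher in both mutants (19.6% of all genes), a median log2 fold change of 0.40 and none at 0. The 10 macrophage and monocyte markers summed to 6890 and 6267 against 7935 and 8909, with 5 of 10 at an unadjusted p under 0.05 and higher in the mutants (3.83% of all genes), a median of 0.40 and none at 0. The part of macrophages or of leukocytes in general in the neutrophil values was not tested.

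Control replicate 2 also had the lowest summed lymphocyte markers. The 8 T cell markers summed to 790 and 233 in the controls and 844 and 875 in the mutants, and the 8 B cell markers to 535 and 165 against 563 and 256. No T or B cell marker was at 0. The lowest library was control replicate 2 for 9 of the 10 neutrophil genes, for 25 of the 28 other neutrophil genes in the table, for all 8 T cell markers and for 7 of the 8 B cell markers, ties included, against 34.5% of all genes. *Lcn2* was the exception among the 10. How far the sex transcripts, the lower blood cell markers and the neutrophil values of this library share a source was not tested.

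For red cells, platelets and other granulocytes the sums of the 2 groups overlapped, and control replicate 2 had the lowest sum in each list. It was the lowest library for 5 of the 5 erythroid and 5 of the 7 platelet markers, against 34.5% of all genes. For the other granulocyte and mast cell markers this held for 3 of the 9, near that share. The 5 erythroid markers summed to 314 and 4 in the controls and to 17 and 29 in the mutants, so that control replicate 1 was the highest, with *Hba-a1* and *Hba-a2* at 0 in at least 1 library. The 7 platelet markers summed to 353 and 219 against 241 and 509, and the 9 markers of eosinophils, basophils and mast cells found in the table to 310 and 68 against 173 and 251, with *Mcpt4* at 0 in at least 1 library. Of the tissue cells, 8 of 8 ciliated cell markers were higher in both mutants (19.6% of all genes), summing to 2462 and 2734 against 4816 and 3394. The 8 smooth muscle markers summed to 4567 and 5848 against 6894 and 6519. The 6 club cell markers summed to 2168 and 1696 against 1549 and 2067.

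**Figure D4:**
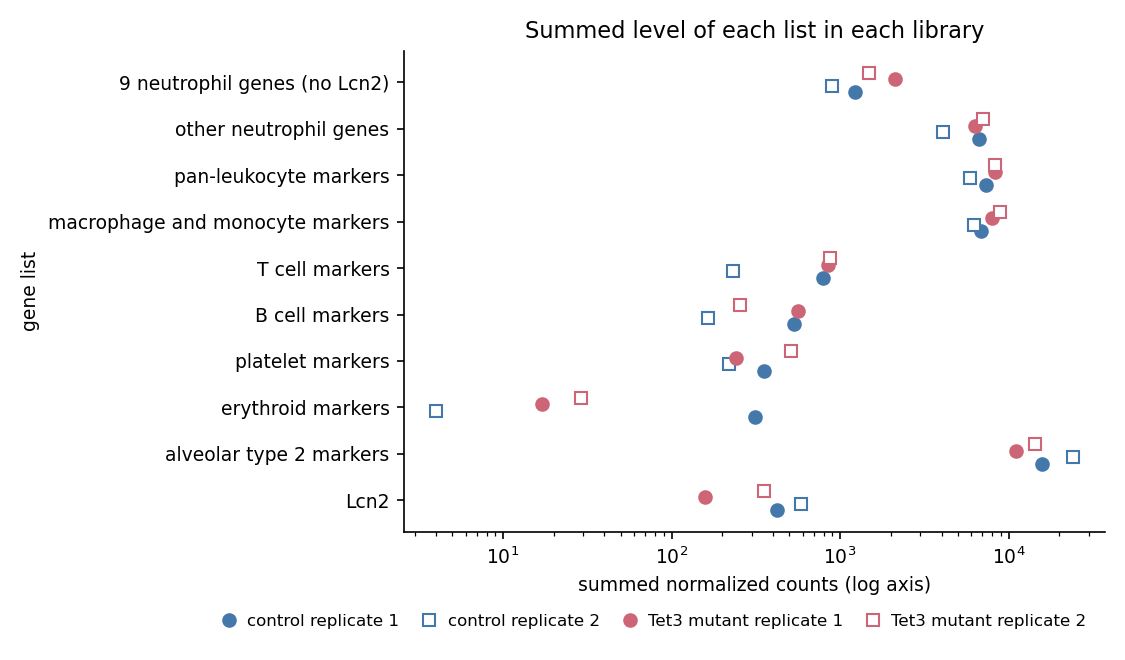
Summed normalized counts on a log axis of each marker list in the 4 libraries, with the 9 neutrophil genes other than *Lcn2* at the top and *Lcn2* at the bottom. The 9 genes sum to 1224 and 893 in the controls and 2128 and 1495 in the mutants. With *Lcn2* the sums are 1647 and 1478 against 2286 and 1847. *Lcn2* and the alveolar type 2 markers share the order of the libraries.

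The mean profile of the 10 genes, each centred on its own mean of log2(normalized count + 1), was 0.09 and -0.74 in the controls and 0.43 and 0.22 in the mutants. The 5 genes with a mean of at least 50 and the smallest distance to this profile over the 4 libraries were *Wscd2*, *Nhs*, *Cyp4f18*, *C2* and *Arsi*, with distances from 0.02 to 0.10. *Cyp4f18*, whose product inactivates leukotriene B4 in neutrophils, had 94 and 49 normalized counts in the controls and 117 and 97 in the mutants. *C2*, a component of the classical complement pathway, had 122 and 63 against 149 and 134. *Wscd2* had 180 and 102 against 228 and 195. The likeness rests on 4 libraries only.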

How the data were processed

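RNA was measured in 4 libraries of sorted tdTomato+ lung cells, 2 Tet3 mutant and 2 control, grouped by the genotype in their labels. The authors removed ribosomal RNA before a stranded total RNA preparation and single-end sequencing. They trimmed reads with Trimmomatic 0.36, aligned them with STAR 2.6.0c to mm10, counted exonic reads with featureCounts of Subread 1.6.0 without reads of several positions or genes, and scaled the counts with DESeq2 (versions as the submitters' processing notes give them). Use of strand in counting is not stated in the sources used here. No member overlaps another annotated gene. The deposited values are normalized counts rounded to whole numbers, and they were treated as a score and not as raw counts. No raw counts were rebuilt from them for a count test. The authors' own comparison columns were not used.

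Log2(value + 1) was tested with limma 3.58.1 (R 4.3.3) with a mean-variance trend over the 16659 genes with a mean of at least 10, with Benjamini-Hochberg adjustment over all of them and a threshold of 0.05. With 2 against 2, an exact permutation test cannot go below 0.333. The script was tested on simulated data. P-values rest on the spread between 2 animals per group, moderated by limma with the spread of all genes tested. The members and the gene lists were chosen with earlier results of these data known. Named are the members, their ligands, partners, relatives and other neutrophil genes with a mean of at least 10, lineage factors, and the 5 genes nearest in profile with a mean of at least 50. Genes under the minimum and markers that are named beside them (*Cxcl3*, *Cxcl5*, *Cxcr1*, *Mpo*, *Cebpe*, *Gfi1*, *Ptprc*, *Acta2*) were picked after their values were seen. Exon lengths are from GENCODE M21. Alternatives were other pseudocounts, minimums and scalings, no trend, the replicate block and leaving out each library.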

Additional observations from a re-analysis of the deposited data

How the results depend on the processing

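No neutrophil gene was called under any of the 13 alternatives (limma, adjusted threshold 0.05). Over all genes the call count was 0 under each of them except without the mean-variance trend, where it was 1. In the 8 alternatives that changed the pseudocount, the minimum, the scaling or the trend, 4 neutrophil genes were higher at an unadjusted p under 0.05. In these alternatives from 876 to 1314 of all genes had such a p in either direction. The median log2 fold change of the 10 ranged from 0.58 to 1.00 without 1 library, and from 0.72 to 0.79 otherwise. With a mean of at least 50, *Ngp*, *Retnlg* and *Mmp8* left the test. *Lcn2* lost its unadjusted p under equal library totals and without the trend.

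Directions turned only when a library was left out, for 2 of the 10 genes: *Mmp8* ranged from -0.21 to 1.47 and *Retnlg* from -0.71 to 1.44, with *Retnlg* also at -0.27 without mutant replicate 1. Among 32 other named genes 9 turned: *Cxcl1* from -0.90 to 0.46, *Ppbp* from -0.67 to 1.41, *Fpr1* from -0.14 to 2.70, *Fpr2* from -0.28 to 3.45, *Ltf* from -1.20 to 1.51, *Chil3* from -0.19 to 2.31, *Tlr4* from -0.13 to 0.17, *Padi2* from -0.22 to 0.44 and *Retnla* from -0.041 to 0.40.

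The numbers 1 and 2 are shared by both groups. The deviations of same-numbered libraries correlated with r = 0.13 over 16659 genes, and with 2 pairs this does not show that the numbers pair the samples. With the replicate block no gene was called. 5 neutrophil genes were higher at an unadjusted p under 0.05, while 1637 of all genes had such a p in either direction. The smallest adjusted p among the 10 was 0.292 by limma.

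Leaving out a library leaves 1 sample in a group, assumed to vary like the other group. Depth limits the low genes most: *Ngp* and *Camp* had 3 or fewer normalized counts in a control library, and counting error alone is large there.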
